A study of Arabidopsis thaliana with 18 samples.

Results

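The RNA of 10 genes of flavonoid and anthocyanin synthesis was followed through 18 RNA-seq libraries of whole Arabidopsis rosettes. They were chosen by gene identifier: CHS, CHI, F3H, F3'H, DFR, LDOX, TT19, UF3GT, 3AT1 and PAP1, 10 of the 32833 genes in the deposited table. Of these, 9 were measured and 1, F3H, had almost no reads. In TAIR10.1, CHS (AT5G13930, 4488476 to 4490264), F3'H (AT5G07990, 2560328 to 2563137), TT19 (AT5G17220, 5658416 to 5659661), DFR (AT5G42800, 17164093 to 17166032) and UF3GT (AT5G54060, 21936746 to 21938396) lie on chromosome 5. CHI (AT3G55120, 20430059 to 20431597) lies on chromosome 3, LDOX (AT4G22880, 12004726 to 12006209) on chromosome 4, and 3AT1 (AT1G03940, 1009228 to 1011145) and PAP1 (AT1G56650, 21233555 to 21235292) on chromosome 1. The rosettes came from 20-d-old plants of 3 genotypes grown under equal days and nights, with 3 libraries per genotype at the end of the night (EN, ZT 24 h) and 3 at the end of the day (ED, ZT 12 h). SnRK1α1-OE carries a transgene for SnRK1α1, a catalytic subunit of the energy-sensing kinase SnRK1, under the constitutive 35S promoter. The line sesquiα2 combines a homozygous T-DNA insertion in SnRK1α1 (GABI_579E09) with a heterozygous insertion in SnRK1α2 (WiscDsLox384F5). Col-0 is the wild type. Seedlings of sesquiα2 were first selected on plates with the herbicide BASTA, whereas SnRK1α1-OE and Col-0 were sown on soil, so that this difference in growth and the genotype cannot be told apart. Each library is a pool of several rosettes.

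Flavonoids are made from phenylalanine. CHS joins the phenylpropanoid unit to malonyl units, CHI closes the ring, and F3H and F3'H add hydroxyl groups. The pathway then divides into flavonols, made by flavonol synthase, and anthocyanins, made through DFR and LDOX. Sugars and acyl groups are attached by enzymes such as UF3GT, which adds a xylose, and 3AT1, which adds a coumaroyl group. TT19 is a glutathione transferase that carries anthocyanins towards the vacuole. PAP1 is a MYB factor that, with a bHLH and a WD40 protein, activates the late genes. In leaves, anthocyanins are known to build up with sugar and strong light.

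The deposited value is in effect the number of reads scaled to a common total (37929523 to 37930213 per library), made from 35050877 to 40416618 reads. SnRK1α1 itself averaged 29210 ± 448 in SnRK1α1-OE, 1833 ± 144 in sesquiα2 and 1945 ± 55.9 in Col-0 at EN (SD, n = 3 each). At ED it averaged 30830 ± 1710 in SnRK1α1-OE, 1732 ± 28.9 in sesquiα2 and 1711 ± 27.6 in Col-0. The overexpression was thus plain in the RNA, whereas the SnRK1α1 transcript in sesquiα2 differed from Col-0 by a log2 fold change of only −0.09 at EN and 0.02 at ED. Where the insertion lies relative to the counted exons was not checked, so this transcript level does not test the label of sesquiα2. SnRK1α2 averaged 1224 ± 57.8 in sesquiα2 and 1351 ± 142 in Col-0 at EN (SD, n = 3 each; log2 fold change −0.14; limma, adjusted p = 0.526). At ED it averaged 1006 ± 88.0 in sesquiα2 and 1471 ± 57.2 in Col-0 (log2 fold change −0.55; limma, adjusted p = 0.0699), not called at either time. Of the cell type markers, those of leaf mesophyll summed to 753000 to 1310000 per library, those of seeds to at most 29.4 and those of root hairs to at most 3.98. Flower markers summed to 4.43 to 37.6 and shoot apex markers to 24.3 to 267 per library. In whole rosettes, fewer cells of a type and less RNA per cell cannot be told apart.

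The promoters of 4 genes are shown because they span the range of behaviour described next: CHS, which hardly changed over the day, and DFR, UF3GT and LDOX, which did. Each is the 250 bases before the annotated start in TAIR10.1 (RefSeq), written in the direction of the gene. Capitals mark the G-box CACGTG, a site that bZIP and bHLH factors are known to bind, and the motif ACCNACC, of the type that MYB factors are known to bind. Both strands were searched, and the 2 motifs did not overlap.
CHS, chr5:4488226-4488475, plus strand: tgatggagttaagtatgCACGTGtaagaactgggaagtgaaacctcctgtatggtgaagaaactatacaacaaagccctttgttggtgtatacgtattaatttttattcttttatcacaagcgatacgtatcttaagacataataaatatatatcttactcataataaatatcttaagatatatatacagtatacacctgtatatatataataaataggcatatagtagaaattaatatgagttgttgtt
DFR, chr5:17166033-17166282, minus strand: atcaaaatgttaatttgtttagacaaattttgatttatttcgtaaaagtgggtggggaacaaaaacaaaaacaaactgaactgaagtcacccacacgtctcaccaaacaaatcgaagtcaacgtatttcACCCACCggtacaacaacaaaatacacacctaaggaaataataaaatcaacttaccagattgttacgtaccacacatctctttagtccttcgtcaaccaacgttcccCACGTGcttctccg
UF3GT, chr5:21938397-21938646, minus strand: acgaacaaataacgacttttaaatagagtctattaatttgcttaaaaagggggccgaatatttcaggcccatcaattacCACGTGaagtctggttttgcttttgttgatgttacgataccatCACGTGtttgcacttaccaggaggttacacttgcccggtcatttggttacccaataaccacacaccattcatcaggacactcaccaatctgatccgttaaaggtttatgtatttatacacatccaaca
LDOX, chr4:12006210-12006459, minus strand: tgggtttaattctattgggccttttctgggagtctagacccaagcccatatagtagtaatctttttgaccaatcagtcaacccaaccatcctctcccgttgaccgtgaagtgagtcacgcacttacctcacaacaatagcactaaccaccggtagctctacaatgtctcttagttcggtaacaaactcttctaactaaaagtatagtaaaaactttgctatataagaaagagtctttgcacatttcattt
The G-box was found in 4 of the 10 windows, at 233 bases before the start in CHS, 249 in F3H, 14 in DFR, and 171 and 128 in UF3GT. Among all 27443 gene starts, 6.49% of windows held it. ACCNACC was found in the window of DFR alone of the 10 genes, 121 bases before the start, and in 6.1% of all windows. Both motifs together stood in 0.517% of all windows. Neither was found in the window of LDOX. Whether these motifs bear on the RNA levels was not tested.

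F3H (AT3G51240, chromosome 3, 19025192 to 19026872, plus strand), the hydroxylase between CHI and DFR, had 0 to 2 reads in each of the 18 libraries. The annotation places a long noncoding RNA, AT3G51238, on the opposite strand, and 1415 of the 1508 exon bases of F3H (93.8%) lie in both genes. AT3G51238 had 0 reads in every library. The same held for UGT89C1, a flavonol rhamnosyltransferase, which shares 99.6% of its exon bases and had 0 reads throughout. Over the whole table, 91.7% of the 193 protein-coding genes that share more than 90% but not all of their exon bases had at most 3 reads in every library, as did 96.7% of the 368 genes that share all of them. Among the 19821 genes that share none, the figure was 22.0%. How reads in shared exons were counted is not given in the sources used here. Whether the overlap accounts for the low value of F3H was not tested. That value is not taken as a measure of its RNA level, and the gene is left out of what follows.

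**Figure D1:**
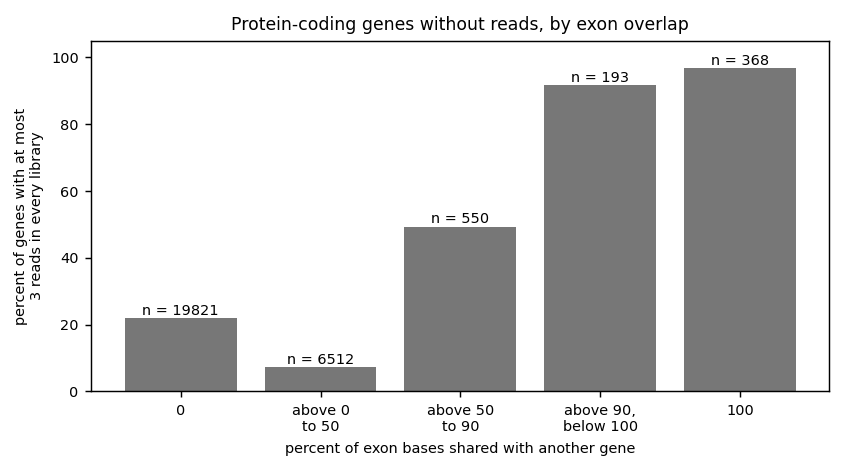
Percent of protein-coding genes with at most 3 reads in every library (bars from 0), by the percent of their exon bases shared with another gene, with the number of genes above each bar. The share stood at 22.0% without overlap, 7.32% with up to 50% of bases shared, and 91.7% and 96.7% in the last 2 classes, where F3H and UGT89C1 belong to the class above 90%.

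The levels of the 9 measured genes, given per kb of exon length so that genes can be compared, were highest for the first enzymes of the pathway. In Col-0 at EN, CHS stood at 8446 ± 1710 per kb and CHI at 805 ± 76.2 per kb (SD, n = 3). DFR followed at 219 ± 85.7, TT19 at 210 ± 49.9 and LDOX at 178 ± 77.1 per kb, neighbours that did not differ beyond their spread. F3'H reached 67.8 ± 2.35 per kb, and PAP1, UF3GT and 3AT1 lay together at 36.6 to 41.8 per kb. At ED, CHS stood at 10090 ± 609 and CHI at 1959 ± 270 per kb in Col-0, while DFR, at 1413 ± 716, and LDOX, at 1351 ± 863, overlapped with each other and with CHI. CHS was first and CHI second in all 6 groups.

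The first comparison asks how the genes differed between the end of the night and the end of the day. Of the 9 measured genes, all but CHS were lower at EN in every genotype. Of the 9 genes, 8 were called lower at EN in SnRK1α1-OE, 8 in sesquiα2 and 8 in Col-0, where a call needs an adjusted p under 0.05 from limma over all genes tested and a change of at least 1 on the log2 scale. Of all genes, 9.46% were called lower in SnRK1α1-OE, 8.59% in sesquiα2 and 13.2% in Col-0. The median log2 fold change of the 9 genes was −2.29 in SnRK1α1-OE, −1.73 in sesquiα2 and −2.63 in Col-0, against −0.03, −0.03 and −0.16 over all genes tested.

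**Figure D2:**
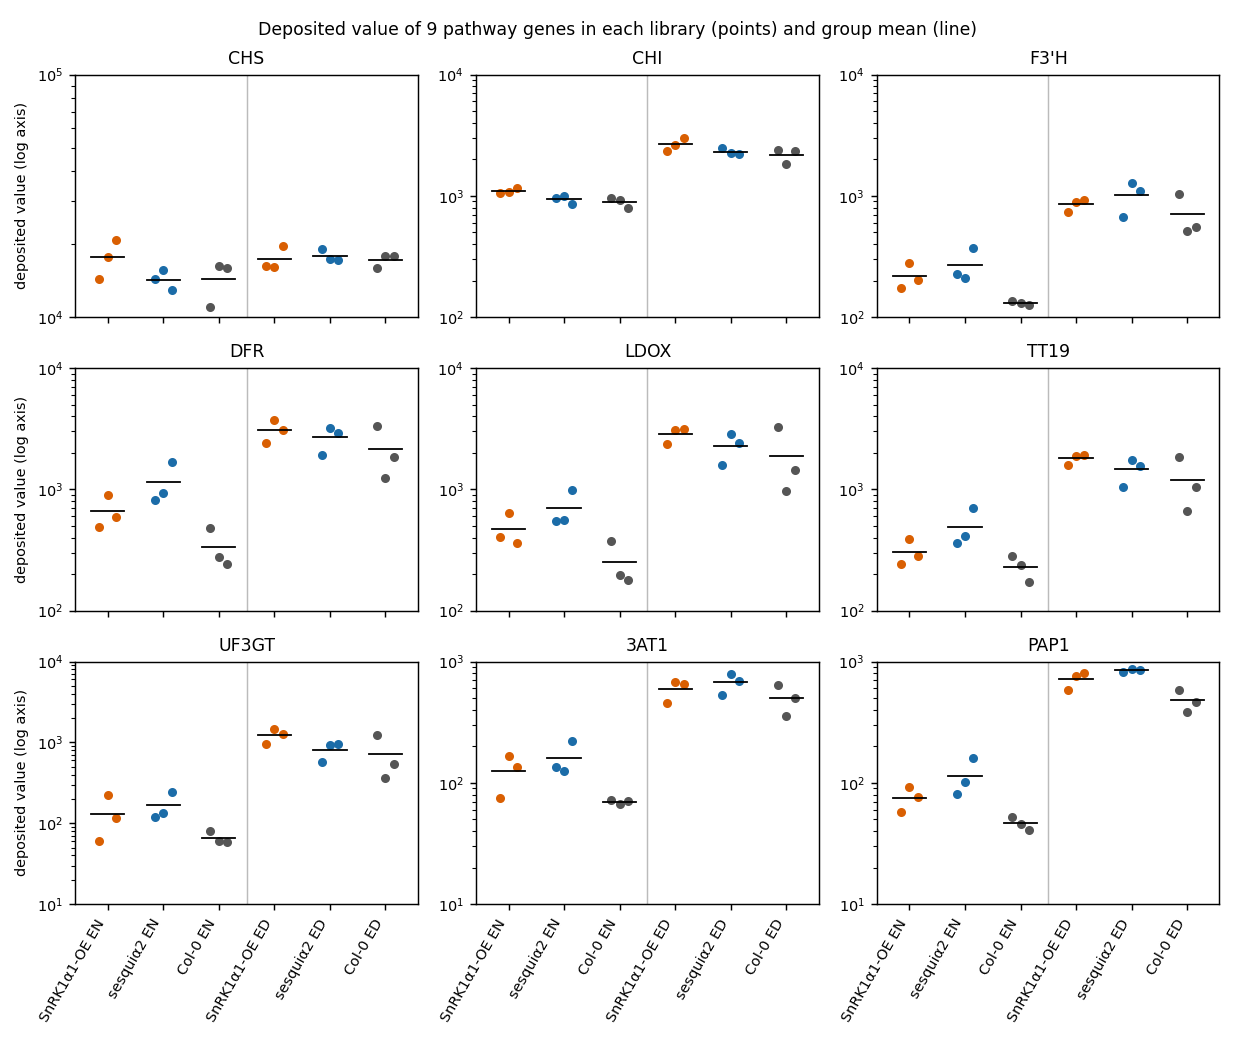
Deposited value (log axis) of each measured gene in each library (points) and the group mean (line), with the 3 groups at EN left of the 3 at ED. All genes but CHS were lower at EN than at ED in every genotype, and the Col-0 libraries at ED ran from 1233 to 3352 for DFR and from 968 to 3258 for LDOX.

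CHS, the entry enzyme, was nearly flat. It had 14320, 17710 and 20860 at EN against 16310, 16020 and 19600 at ED in SnRK1α1-OE. In sesquiα2 it had 14290, 15580 and 12910 at EN against 19020, 17390 and 17110 at ED, and in Col-0 11030, 16260 and 15870 at EN against 15990, 17810 and 17770 at ED. The EN and ED libraries overlapped in SnRK1α1-OE and Col-0 but not in sesquiα2, where the log2 fold change was −0.33 ± 0.09 (SE; limma, adjusted p = 0.0171), short of the fold required for a call. It was 0.02 in SnRK1α1-OE and −0.28 in Col-0, both uncalled (limma, adjusted p = 0.943 and 0.210).

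CHI, the next enzyme, fell by 1.28 on the log2 scale in SnRK1α1-OE, by 1.30 in sesquiα2 and by 1.28 in Col-0 at EN. Its libraries ranged from 1050 to 1153 at EN and 2354 to 3003 at ED in SnRK1α1-OE, from 860 to 992 and 2220 to 2473 in sesquiα2, and from 800.0 to 963 and 1833 to 2378 in Col-0. The groups did not overlap in any genotype, and the SE of each change was at most 0.138.

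DFR, the first enzyme committed to anthocyanins, showed the widest range between genotypes. In SnRK1α1-OE it had 493, 892 and 589 at EN against 2432, 3738 and 3070 at ED. In sesquiα2 it had 821, 924 and 1684 at EN against 1914, 3211 and 2940 at ED. In Col-0 it had 482, 275 and 242 at EN against 3352, 1233 and 1858 at ED. The times did not overlap in any genotype, although the highest sesquiα2 library at EN (replicate 3) came close to the lowest at ED (replicate 1). The log2 fold change was −2.25 ± 0.23 in SnRK1α1-OE, −1.27 ± 0.32 in sesquiα2 and −2.63 ± 0.39 in Col-0 (SE; limma, adjusted p = 5.02e-05, 0.0172 and 0.00135). The call in sesquiα2 was lost without ED replicate 2 or EN replicate 2 of sesquiα2, with 7 of the 9 genes then called.

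PAP1, the activator, was far lower at EN. It had 57.9, 92.4 and 76.0 at EN against 582, 756 and 807 at ED in SnRK1α1-OE, and 80.4, 103 and 162 against 813, 865 and 856 in sesquiα2. In Col-0 it had 52.2, 45.7 and 41.2 at EN against 583, 387 and 464 at ED. Every EN library lay below every ED library in each genotype. The log2 fold change was −3.24 ± 0.21 in SnRK1α1-OE, −2.93 ± 0.23 in sesquiα2 and −3.32 ± 0.21 in Col-0 (SE; limma, adjusted p at most 2.60e-05).

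The remaining late genes followed. For LDOX, which makes the coloured anthocyanidins, the log2 fold change was −2.65 in SnRK1α1-OE, −1.73 in sesquiα2 and −2.81 in Col-0. For UF3GT it was −3.39, −2.32 and −3.25, for 3AT1 −2.29, −2.09 and −2.77, for TT19 −2.58, −1.59 and −2.26, and for F3'H −1.98, −1.90 and −2.34 in the same order of genotypes. All of these changes were called, with adjusted p from limma of at most 0.00368. The coding sequence of 3AT1 is 97.6% identical to that of the related acyltransferase 3AT2 over 1041 bases, so reads may have been divided between them, and 5.63% of its exon bases and 9.85% of those of TT19 lie in other genes as well.

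The EN and ED libraries did not overlap for 8 of 9 genes in SnRK1α1-OE, 9 in sesquiα2 and 8 in Col-0, always with EN lower. Over all genes tested, 28.5%, 31.9% and 34.5% were lower at EN without overlap in the same order. With 3 libraries against 3, an exact permutation test of one gene cannot give a two-sided p below 0.1. Nothing in the sources says that the libraries of a group came from separate growth experiments, so p-values measure the spread between these pools only.

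Around these genes, a wider list of 50 further flavonoid genes moved in both directions at EN. In SnRK1α1-OE 6 were called higher and 14 lower of 46 tested, in sesquiα2 7 and 8 of 45, and in Col-0 7 and 14 of 46. Of all genes, 7.88%, 8.39% and 7.63% were called higher in the same order. The higher ones called in all 3 genotypes were PAL2, which makes cinnamate from phenylalanine, HYH, a light-signalling bZIP factor, the repressors MYBL2, LBD38 and LBD39, and KFB-CHS, an F-box protein that marks CHS for degradation. PAL2 rose by 1.65 on the log2 scale in SnRK1α1-OE, 1.46 in sesquiα2 and 1.66 in Col-0, and HYH by 2.30, 2.68 and 2.93. MYBL2 rose by 1.40 in SnRK1α1-OE, 1.28 in sesquiα2 and 2.498 in Col-0, and KFB-CHS by 1.96, 1.80 and 2.76.

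Called lower in all 3 genotypes were the glycosyltransferases UGT78D3 and UGT75C1, the acyltransferases 3AT2 and 5MAT, the MYB factors PAP2, MYB11 and MYB111, and SPL9, which weakens the MYB-bHLH-WD40 complex. For 5MAT, a malonyltransferase, the log2 fold change was −2.78 in SnRK1α1-OE, −1.77 in sesquiα2 and −3.02 in Col-0. The bHLH factors TT8 and GL3 were called lower in SnRK1α1-OE (−2.09 and −1.70) and Col-0 (−2.11 and −1.84), and had −1.44 and −0.90 in sesquiα2 without a call. FLS1, the flavonol synthase, had −1.06, −0.86 and −0.98 and was called in SnRK1α1-OE alone, though its values lie on both sides of the fold limit. MYB113 and MYB114 were called lower in SnRK1α1-OE and Col-0, and MYB12 in SnRK1α1-OE alone. In Col-0 alone, RHM1 of the flavonol branch and the repressor MYB32 were called lower and the repressor LBD37 higher. PAL4 was called higher in sesquiα2 alone. MYB113, a close relative of PAP1, held 0 to 6 reads in each EN library against 5 to 68 at ED. PAP2, MYB113 and MYB114 stayed below a value of 10 in every EN library. They reached the 10 in 3 libraries needed for a test only through ED. Their calls could thus only be lower at EN and are no support for that direction, although the counts above include them. Of the genes for proanthocyanidins, the seed tannins, BAN, TT12 and TT2 had at most 4 reads in any library. AHA10, listed in the same branch, had 30 to 142 reads per library and was not called in any comparison.

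**Figure D3:**
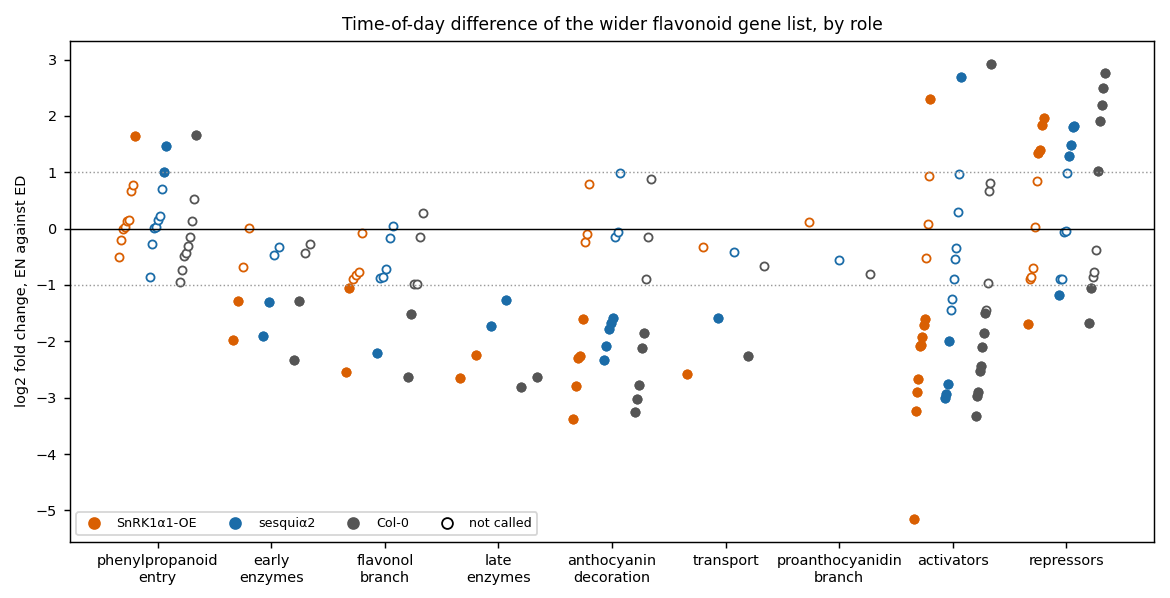
Log2 fold change of EN against ED for each tested gene of the wider list, grouped by role, in SnRK1α1-OE, sesquiα2 and Col-0 (filled, called; open, not called; dotted lines at −1 and 1). All 6 values for DFR and LDOX are called and lie between −2.81 and −1.27, whereas repressors reach 2.76 in Col-0. The lowest point is MYB113 in SnRK1α1-OE, with at most 4 reads at EN. PAP2, MYB113 and MYB114 could be tested only through their ED libraries, so that only lower calls were possible for them.

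The second comparison asks how each line differed from Col-0. The comparisons at one time share the same 3 Col-0 libraries, so that SnRK1α1-OE and sesquiα2 are set side by side and not against each other. At EN, 3 of the 9 genes, DFR, LDOX and 3AT1, were called higher in sesquiα2, where 0.792% of all genes were. None was called in SnRK1α1-OE at EN or ED, nor in sesquiα2 at ED, where 0.0412%, 0.128% and 0.123% of all genes were called higher. At an unadjusted p under 0.05, limma passed 6 of the 9 genes in SnRK1α1-OE at EN, 1 at ED and, for sesquiα2 at ED, 1 gene, and 3.94%, 24.9% and 14.2% of all genes. On whole reads, the edgeR quasi-likelihood test also called 0 in each of these 3 comparisons.

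DFR averaged 1143 ± 472 in sesquiα2 and 333 ± 130 in Col-0 at EN (SD, n = 3 each), and the lowest sesquiα2 library, with 821, lay above the highest Col-0 library, with 482. The log2 fold change was 1.77 ± 0.31 (SE; limma, adjusted p = 0.0208). LDOX had 546, 559 and 980 in sesquiα2 against 374, 196 and 179 in Col-0. Its change on the log2 scale was 1.499 ± 0.31 (SE; limma, adjusted p = 0.0388). 3AT1 had 134, 125 and 222 against 72.4, 66.5 and 71.4, and 1.14 ± 0.25 (SE; limma, adjusted p = 0.0453). In all 3 genes, replicate 3 was the highest sesquiα2 library and replicate 1 the highest Col-0 library.

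These calls rest on few libraries. The number of genes called was 7 without Col-0 EN replicate 1, 1 without sesquiα2 EN replicate 1, and 0 without Col-0 EN replicate 2 or 3 or sesquiα2 EN replicate 2 or 3. Leaving out Col-0 EN replicate 1 also took the calls over all genes to 2.74%, against 1.21% with all 6 libraries, in either direction. Dropping any other of the 6 libraries lowered this share, to between 0.449% and 0.805%. Fewer calls were thus made over all genes too, though their share did not reach 0 in any of these fits. Of the other genes, UF3GT had a log2 fold change of 1.26 (limma, adjusted p = 0.0531), PAP1 1.24 (limma, 0.0554), TT19 1.06 (limma, 0.0760) and F3'H 0.995 (limma, 0.0501), none of them called. CHS and CHI had 0.00 and 0.07, with adjusted p of 0.991 and 0.782 from limma. In sesquiα2, 7 of the 9 genes, all but CHS and CHI, lay above Col-0 without overlap at EN, as did 18.8% of all genes tested. The median log2 fold change of the 9 genes was 1.14, against 0.10 over all genes.

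At EN, DFR and CHI set against each other show the same contrast within libraries. The ratio of DFR to CHI per kb was 0.625, 0.681 and 1.43 in sesquiα2 against 0.366, 0.218 and 0.221 in Col-0, so that the genotypes did not overlap. In SnRK1α1-OE it was 0.343, 0.612 and 0.373, which overlapped with Col-0 and lay below every sesquiα2 library. FLS1 per DFR, flavonol against anthocyanin branch, was 3.30, 3.11 and 1.45 in sesquiα2 against 6.02, 9.21 and 9.80 in Col-0. In SnRK1α1-OE it was 7.0, 2.86 and 5.17, which overlapped with both sesquiα2 and Col-0. These ratios were chosen after the values were seen and are given as a description.

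In SnRK1α1-OE at EN, 5 of 9 genes (CHI, F3'H, DFR, 3AT1 and PAP1) lay above Col-0 without overlap, against 7.01% of all genes tested. Their log2 fold changes were 0.29, 0.71, 1.002, 0.75 and 0.67, with an adjusted p of 1 from limma for each. The median of the 9 genes was 0.71 in SnRK1α1-OE at EN, against 0.03 over all genes. At ED the median was 0.59 in SnRK1α1-OE and 0.41 in sesquiα2, against −0.12 and 6.58e-04 over all genes. No gene was free of overlap in SnRK1α1-OE at ED, where 11.0% of all genes tested were higher without overlap. PAP1 alone was in sesquiα2, with 813, 865 and 856 against 583, 387 and 464 in Col-0, where 11.2% of all genes tested were higher without overlap. Its log2 fold change was 0.84 ± 0.15 (SE; limma, adjusted p = 0.0748).

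**Figure D4:**
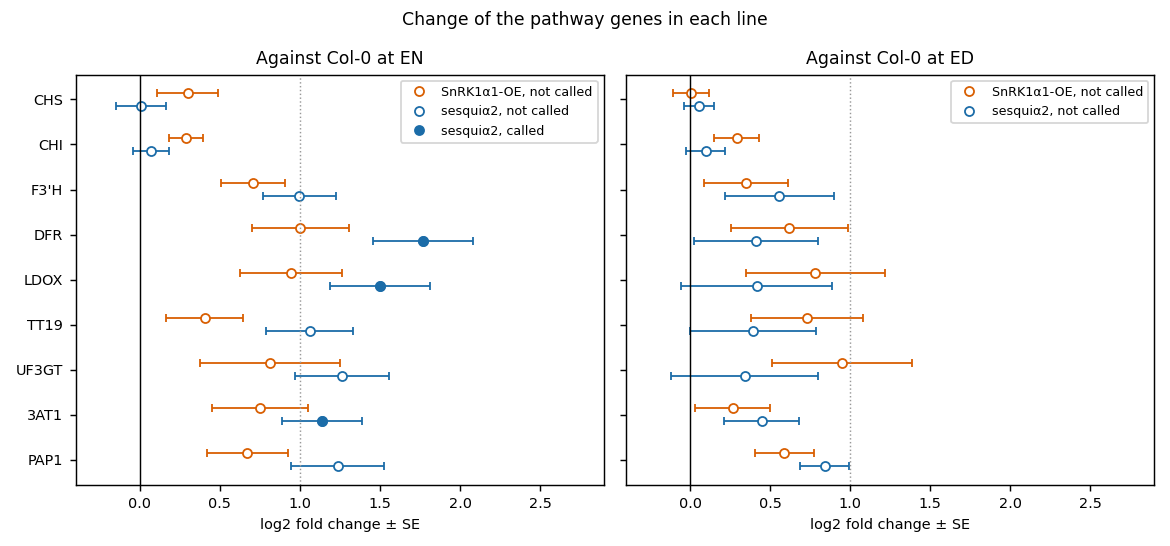
Log2 fold change against Col-0 with its SE for each measured gene in SnRK1α1-OE and sesquiα2, at EN (left) and ED (right), with filled points for calls and a dotted line at 1. DFR (1.77), LDOX (1.499) and 3AT1 (1.14) in sesquiα2 at EN are the filled points, and CHS stays at 0.00 to 0.30 throughout.

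Of the wider list, 2 of 43 tested genes were called in sesquiα2 at EN, both higher. KFB-CHS fell just short of a call there and was called lower with median-ratio scaling (log2 fold change −1.08; limma, adjusted p = 0.00441) and by edgeR (−1.08; adjusted p = 0.00458). 5MAT had 180, 164 and 307 in sesquiα2 against 87.0, 54.4 and 73.3 in Col-0 (log2 fold change 1.55; limma, adjusted p = 0.0206). GL3, a bHLH partner of PAP1, had 67.2, 59.6 and 87.6 against 31.9, 23.1 and 30.3 (log2 fold change 1.30; limma, adjusted p = 0.0428). Both calls were kept only without Col-0 EN replicate 1 when 1 library was left out. None of the wider list was called in SnRK1α1-OE at EN or ED or in sesquiα2 at ED.

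Whether the change of a line differed between EN and ED was tested directly. None of the 9 genes passed in either line, where 0.210% of all genes did in SnRK1α1-OE and 0.815% in sesquiα2. At an unadjusted p under 0.05, limma passed 0 genes in SnRK1α1-OE and 1, DFR, in sesquiα2, against 20.5% and 17.2% of all genes, and edgeR called 0 in both lines. In sesquiα2 the difference for DFR was 1.36 ± 0.57 on the log2 scale (SE; limma, adjusted p = 0.254) and that for LDOX 1.08 ± 0.63 (SE; limma, adjusted p = 0.408). That DFR and LDOX were higher in sesquiα2 at EN only was therefore not shown. In the wider list KFB-CHS, 1 of 46 genes tested, passed in sesquiα2, with −0.96 ± 0.20 (SE; limma, adjusted p = 0.0494). It passed in 5 of 9 other settings but in only 2 of 12 fits that left out 1 library.

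Within each group of 3 libraries, 7 of the genes (all but CHS and CHI, a set formed after the values were seen) went up and down together. Over the 18 libraries, their log2 values correlated pairwise with r between 0.943 and 0.990, and after each group mean was subtracted with r between 0.730 and 0.967. With CHI the within-group r was 0.069 to 0.324, and with CHS −0.529 to 0.033. These points share libraries and depth, and are given as a description. Among the Col-0 libraries at ED, replicate 1 was the highest and replicate 2 the lowest in all 7 genes. At EN, replicate 2 of SnRK1α1-OE, replicate 3 of sesquiα2 and replicate 1 of Col-0 were the highest in all 7.

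The library order bears on the ED comparison with Col-0. Without Col-0 ED replicate 1, 4 genes (DFR, LDOX, UF3GT and TT19) were called higher in SnRK1α1-OE at ED in place of 0. That fit called 2.82% of all genes in either direction, against 0.179% with all 6 libraries. The defence markers PR1, PR2 and PR5 also differed within groups. Their sum was 88030, 31950 and 22510 in SnRK1α1-OE, 7583, 20050 and 81080 in sesquiα2, and 15220, 165600 and 143900 in Col-0 at ED. In SnRK1α1-OE at ED, replicate 1 was the lowest in all 7 genes and the highest in the defence sum. The Col-0 ED library highest in the 7 genes had the lowest defence sum of its group. In sesquiα2 at ED, replicate 1 was the lowest in all 7 genes and in the defence sum. At EN the sums were 58800, 26600 and 54600 in SnRK1α1-OE, 32330, 44250 and 34620 in sesquiα2, and 25540, 35230 and 28430 in Col-0. The EN library highest in the 7 genes had the lowest sum of its group in SnRK1α1-OE and Col-0. In sesquiα2 it had the middle sum. All 3 defence markers were detected, and their part in the results was not tested.

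The sum of the shoot apex markers STM and CLV3 moved with the 7 genes in most groups. It was nearly all STM, since STM had 18 to 273 reads per library and CLV3 only 0 to 5. Their sum at EN was 97.6, 113 and 55.5 in SnRK1α1-OE, 24.3, 78.1 and 133 in sesquiα2, and 162, 70.2 and 71.7 in Col-0. At ED it was 43.4, 62.3 and 80.6 in SnRK1α1-OE, 65.3, 267 and 62.3 in sesquiα2, and 202, 42.4 and 104 in Col-0. The library with the highest sum was also the highest in all 7 genes in each genotype at EN and in Col-0 at ED, in 6 of 7 in sesquiα2 at ED and in 4 of 7 in SnRK1α1-OE at ED. Their part in the results was not tested.

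**Figure D5:**
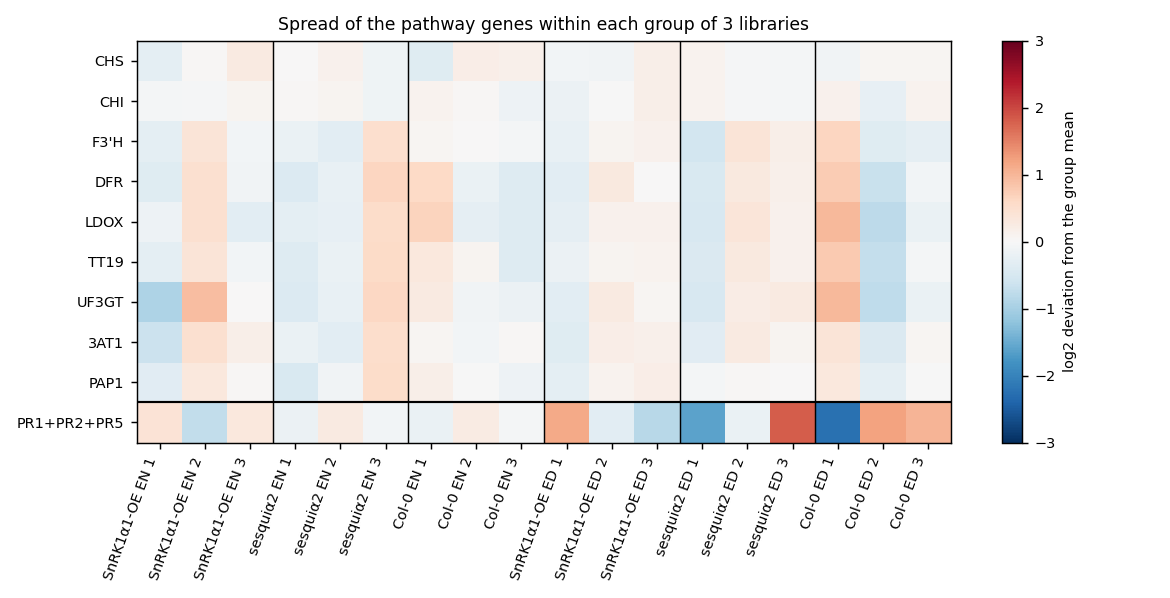
Log2 deviation from the group mean of each measured gene and of the summed defence markers (colour scale) in each library, with groups parted by lines. The 7 genes from F3'H to PAP1 all lie above the group mean in Col-0 ED replicate 1 and below it in replicate 2, while CHS and CHI stay pale.

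By a measure of likeness over the 18 libraries, the 5 genes outside the wider list most like the mean of the 9 genes were AT4G18440 (r = 0.972), AT1G73325 (r = 0.969), CORI3 (AT4G23600, r = 0.969), AOC2 (AT3G25770, r = 0.969) and ZFP7 (AT1G24625, r = 0.963), of 20283 compared. This r includes the difference between EN and ED. After each group mean was subtracted, r was 0.705, 0.716, 0.573, 0.469 and 0.460 in the same order. AOC2 encodes an allene oxide cyclase of jasmonate synthesis and averaged 1172 in SnRK1α1-OE, 1358 in sesquiα2 and 712 in Col-0 at EN, and 25420, 16410 and 13140 at ED in the same order. CORI3 averaged 1046 in SnRK1α1-OE, 1007 in sesquiα2 and 611 in Col-0 at EN, and 19930, 17600 and 10060 at ED. In Col-0, AT4G18440 averaged 1477 at EN and 10240 at ED, AT1G73325 5.66 and 379, and ZFP7 254 and 708.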

How the data were processed

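According to the study's methods and the submitters' processing notes, reads were mapped with HISAT2 to TAIR10 and counted with featureCounts. The deposited values, a signal scale, are edgeR pseudo-counts that the authors multiplied by TMM factors; the strand setting is not given in the sources used here. Whole reads were recovered by inverting this calculation, and the forward calculation returned all 590994 values within 1e-06. The genomic annotation used was TAIR10.1, in which 32548 of 32833 identifiers were found. With limma 3.58.1 in R 4.3.3 (trend and robust settings), log2 of the value plus 1 was modelled on the libraries compared, 6 per pair of groups and 12 for differences between times, for genes that reached 10 in 3 or more libraries and summed to 15 or more. P-values are two-sided and adjusted by Benjamini-Hochberg over all genes tested. Calls needed an adjusted p under 0.05 and, except for differences between times, a change of 1 or more on the log2 scale in either direction. The named genes include the members, every called gene of the wider list of 60, and the 5 most alike genes. Members and lists were chosen with earlier results of these data known. Alternatives were pseudocounts of 0.125 and 4, no filter, median-ratio and quantile scaling, 1 fit of 18 libraries, no robust setting, the replicate block, the edgeR quasi-likelihood test (version 4.0.16) on whole reads, and leaving out each library. Calls were tested on simulated data.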

Additional observations from a re-analysis of the deposited data

Results flagged for a closer look

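KFB-CHS, an F-box protein that marks CHS for degradation, was the gene of the wider list whose change in sesquiα2 differed between the times, by −0.96 ± 0.20 on the log2 scale (SE; limma, adjusted p = 0.0494). It had 4133, 3678 and 3771 in sesquiα2 against 6603, 8817 and 7530 in Col-0 at EN, and 923, 1116 and 1328 in sesquiα2 against 992, 1241 and 1149 in Col-0 at ED. The genotypes did not overlap at EN and overlapped at ED. At EN the log2 fold change was −0.98 (limma, adjusted p = 0.00377), just short of the fold required for a call. It was called lower with median-ratio scaling (−1.08), with edgeR (−1.08, adjusted p = 0.00458), and in limma fits without Col-0 EN replicate 1 (−1.08) or sesquiα2 EN replicate 1 (−1.03). CHS itself had a log2 fold change of 0.00 there. The difference between times passed in 5 of 9 other settings and in 2 of 12 fits that left out 1 library, with adjusted p from 0.0257 to 0.140 over these.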

How the results depend on the processing

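The number of the 9 genes called was within 1.5 times the reported one under every setting that kept all libraries. With the replicate block, 3 genes were called in sesquiα2 at EN, 8 in each comparison of EN with ED and 0 in the other comparisons, but GL3 was lost (limma, adjusted p = 0.0530). With quantile normalization 2 were called in sesquiα2 at EN, since 3AT1 was lost (log2 fold change 0.95; limma, adjusted p = 0.0584), as was GL3 (1.08; limma, 0.0512). With all 18 libraries in 1 fit 4 were called there, with PAP1 added (1.24; limma, adjusted p = 0.00578). Same-numbered libraries had deviations correlated between −0.393 and 0.503, and libraries with other numbers between −0.508 and 0.453. These ranges do not show whether the replicate numbers pair the samples. Leaving out 1 library gave 0 to 4 called genes in SnRK1α1-OE at ED, 0 to 7 in sesquiα2 at EN, 7 to 8 for EN against ED in sesquiα2, and 0 or 8, as reported, elsewhere. Over all pairs of the 9 genes (36), the median r was 0.962, and 0.792 after subtraction of group means.

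Changes near 0 turned sign, none of them called. In sesquiα2 at EN, CHS had −0.0946 with median-ratio scaling and −0.11 with edgeR, and CHI −0.0298 with median-ratio scaling, −0.0210 with edgeR and −0.0188 with quantile normalization. For the difference between times in SnRK1α1-OE, PAP1 had −0.0492 with median-ratio scaling, −0.0477 with quantile normalization and −0.0011 with edgeR, LDOX −0.0079 with quantile normalization and UF3GT 0.12 with edgeR. In sesquiα2 that of CHS was 0.0059 with quantile normalization. With 1 library left out, CHS at ED ran from −0.0868 to 0.0586 in SnRK1α1-OE. At ED in sesquiα2, UF3GT ran from −0.0448 to 0.82 and CHI from −0.0231 to 0.16. In sesquiα2 at EN, CHS ran from −0.18 to 0.10 and CHI from −0.0090 to 0.13, and for EN against ED in SnRK1α1-OE, CHS from −0.11 to 0.16. For the difference between times in SnRK1α1-OE, PAP1 ran from −0.0727 to 0.26, TT19 from −0.71 to 0.0326, DFR from −0.00063 to 0.72, UF3GT from −0.62 to 0.33, CHI from −0.0885 to 0.12 and LDOX from −0.33 to 0.55, and in sesquiα2 CHS from −0.23 to 0.05 and CHI from −0.11 to 0.0925. The cause was not tested.

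Over all genes, the calls ranged more widely: 35 in SnRK1α1-OE at ED (19 with the replicate block, 226 in 1 fit of 18 libraries), 13 at EN (33 with the block), 53 in sesquiα2 at ED (20 and 219) and 236 at EN (226 to 260). The differences between times gave 42 calls in SnRK1α1-OE (4 to 498) and 164 in sesquiα2 (64 to 378). These ranges are for settings that kept all libraries. With 1 library left out, the differences between times gave 0 to 1132 calls in SnRK1α1-OE and 7 to 1564 in sesquiα2. The comparison of sesquiα2 with Col-0 at EN then gave 87 to 532. Leaving out Col-0 ED replicate 1 gave 548 and 336 calls at ED. Whether read depth limited the calls was not tested. Of the 9 genes, PAP1 reached the lowest count, with 42 to 908 reads per library.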
